A study of Mus musculus with 11 samples.

Results

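The baseline transcriptome of alphaTC1-6 cells was described from the scramble control libraries alone, 3 of the 11 libraries of a series on knockdown of the m6A writers Mettl3 and Mettl14. AlphaTC1-6 is an immortalised mouse pancreatic alpha cell line, so that all values come from 1 line, and no primary alpha cells were analysed here. The cells were grown in their usual medium, reverse transfected at 70% confluency with the scramble control, and collected 72 h later. RNA was extracted in Trizol, cleaned on columns and turned into stranded mRNA libraries. These cells carried the transfection itself, which all groups share, and no untransfected cells were analysed here. The other 8 libraries, 4 for the Mettl3 knockdown and 4 for the Mettl14 knockdown, entered no comparison. Levels and ranks rest on replicates 1 and 3. Replicate 2 held transcripts of lung and blood and is given beside them throughout. The labels do not say that the replicates were separate cultures, so their spread may be technical.

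Alpha cells are the islet cells that make glucagon, the hormone that raises blood glucose when it is low. The hormone is cut from proglucagon by the prohormone convertase encoded by Pcsk2, stored in dense-core granules built around granin proteins, and released when calcium enters through voltage-gated channels. The identity of the cell is held by a set of transcription factors, among them Pax6, Isl1 and the Irx factors, while beta cells rely on Pdx1 and Mafa and make insulin.

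The 3 libraries held 22238687, 22397894 and 19576632 counts in replicates 1, 3 and 2. Values are in CPM, the counts of a gene per 1000000 counts of its library. Because long transcripts yield more fragments, ratios between genes were taken on a length-scaled scale, CPM per kilobase of transcript rescaled to the same total. Ranks, list medians and orders given in CPM are orders of counts and are not adjusted for length. A gene was called present at 1 CPM or more in both replicates 1 and 3, and 12272 of 53947 genes, 22.7%, were. Among protein-coding genes 11263 of 21722, 51.9%, were present. Where 3 CPM values follow a gene without further words, they stand for replicates 1, 3 and 2, in that order, and a range given for several genes runs from the lowest to the highest of their values in the 3 libraries. A gene with no counts may still have been there below the depth: 3 counts, the limit that a count of 0 allows, correspond to 0.135, 0.134 and 0.153 CPM, counting error alone.

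Replicates 1 and 3 lay closer to each other than either lay to replicate 2. Of the genes at 1 CPM or more, 2.39% differed by 1.5-fold or more between replicates 1 and 3, against 6.64% between replicates 1 and 2 and 5.83% between replicates 2 and 3. The chi-square per degree of freedom was 2.93 for replicates 1 and 3, above the 1 that sampling of the same library would give, and 15.3 and 13.8 for the pairs with replicate 2.

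Gcg, the proglucagon gene, was the most abundant transcript in each of the 3 libraries, at 35769 CPM in replicate 1, 36139 in replicate 3 and 29359 in replicate 2. Its counts were 795462, 809429 and 574755 in replicates 1, 3 and 2. It therefore held 3.58% of all counts in replicate 1, 3.61% in replicate 3 and 2.94% in replicate 2. The exact binomial 95% intervals, which cover counting error only, were 3.57% to 3.58%, 3.61% to 3.62% and 2.93% to 2.94%. Replicate 2 lay below the others for Gcg, and the part that its lung and blood transcripts had in this was not tested. On the length-scaled scale Gcg was again first, at 66542 in replicate 1, 67448 in replicate 3 and 55234 in replicate 2, and it stayed first with the longest or the median transcript as the length.

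The bases upstream of the start of Gcg are shown with those of the granin genes Chga and Scg2 and of Sst, the somatostatin gene of delta cells, because these genes span the range from the most abundant hormone transcript to a nearly undetected one. Each sequence is the 250 bases before the annotated gene start, from RefSeq on build GRCm38.p6, read 5′ to 3′ along the gene. Capitals mark TATAAA, the TATA box letters, searched on both strands so that TTTATA also counts, and TGACGTCA, the palindromic cAMP response element. The motifs cannot overlap each other.
Gcg, chr2:62483654-62483903, minus strand: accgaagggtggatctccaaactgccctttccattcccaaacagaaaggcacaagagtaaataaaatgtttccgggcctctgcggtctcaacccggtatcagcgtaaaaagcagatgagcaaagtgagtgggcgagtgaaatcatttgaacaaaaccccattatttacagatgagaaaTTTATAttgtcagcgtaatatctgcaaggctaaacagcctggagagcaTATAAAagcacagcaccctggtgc
Chga, chr12:102554691-102554940, plus strand: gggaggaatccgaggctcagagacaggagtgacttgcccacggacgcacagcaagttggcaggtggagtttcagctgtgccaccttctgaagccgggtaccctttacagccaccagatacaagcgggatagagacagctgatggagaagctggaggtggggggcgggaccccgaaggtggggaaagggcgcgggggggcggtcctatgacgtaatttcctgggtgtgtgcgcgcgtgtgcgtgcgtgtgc
Scg2, chr1:79440027-79440276, minus strand: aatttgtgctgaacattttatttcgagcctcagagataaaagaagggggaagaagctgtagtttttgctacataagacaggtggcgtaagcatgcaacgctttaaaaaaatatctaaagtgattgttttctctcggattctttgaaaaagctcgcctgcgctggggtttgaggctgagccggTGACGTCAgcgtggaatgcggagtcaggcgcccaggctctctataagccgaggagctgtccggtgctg
Sst, chr16:23890845-23891094, minus strand: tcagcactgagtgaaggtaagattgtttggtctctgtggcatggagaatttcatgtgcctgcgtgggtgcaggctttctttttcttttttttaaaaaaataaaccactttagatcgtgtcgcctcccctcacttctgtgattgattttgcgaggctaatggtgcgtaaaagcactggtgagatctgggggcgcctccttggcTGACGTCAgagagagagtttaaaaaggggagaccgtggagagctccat
TATAAA letters were found 2 times in the window of Gcg, the nearer match starting 24 bases before the gene start, and in none of the other 3 windows. In Scg2 TGACGTCA began 68 bases before the start, and in Sst 48 bases before it. Neither motif was in the Chga window. Only exact letters were searched, so near matches such as tgacgtaa in that window were not counted. Over all 32851 promoter windows of the same length, 12.4% held TATAAA or TTTATA and 1.55% held TGACGTCA. Among the windows of the 30 nuclear protein-coding genes with the highest CPM, 25 of which were in the promoter table with 38 windows, 6 held the TATA letters and 2 held TGACGTCA. Scg2, at 2908 CPM, and Sst, at 1 count in each library, both carried the cAMP response element letters, so the letters alone did not sort these genes by level. A match describes letters and is not a bound site.

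A few genes held a large part of the libraries. The 10 genes with the highest CPM held 12.1% of counts in replicate 1, 11.9% in replicate 3 and 12.2% in replicate 2, and the top 100 held 24.9%, 24.8% and 24.4%. By mean CPM of replicates 1 and 3, 62 genes were at 1000 CPM or more and held 21.6% of counts, 2229 were between 100 and 1000 CPM and held 47.7%, 7069 were between 10 and 100 CPM and held 29.2%, and 3124 were between 1 and 10 CPM and held 1.32%. The remaining 41463 were below 1 CPM. The median present gene was at 32.7 CPM.

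Among nuclear protein-coding genes, the members with the highest CPM after Gcg were Gnas, which encodes the stimulatory G protein alpha subunit, Pcsk2, Chga and Scg2. Gnas stood at 5753, 5933 and 6438 CPM. By length-scaled level Gnas and Pcsk2 took ranks 23 and 41 among all genes, against ranks 9 and 13 by CPM. The translation elongation factors Eef1a1 and Eef2, the ATP synthase subunit Atp5b, the MAGE family gene Maged1 and the ferritin light chain Ftl1 ranged over 1705 to 2725 CPM. In each of these genes the 3 libraries lay within 1.5-fold of each other. Ptma, which encodes prothymosin alpha, had 2708, 2582 and 1685 CPM, with replicate 2 at 0.637 times the mean of the other libraries. By length-scaled level the 15 highest genes were Gcg, 9 mitochondrially encoded genes, the pseudogenes Gm28661, Gm28437 and Gm13394 described below, Rbp4 and Ptma. Rbp4 had a length-scaled level of 4359 in replicate 1, 4765 in replicate 3 and 4692 in replicate 2, and Ptma one of 4507 in replicate 1, 4312 in replicate 3 and 2837 in replicate 2.

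**Figure D1:**
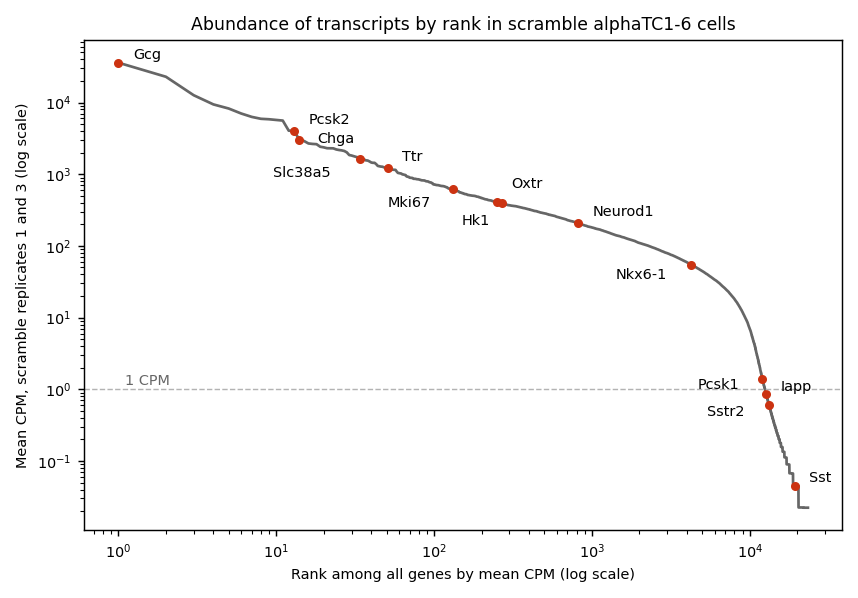
Mean CPM of scramble replicates 1 and 3 for each gene against its rank, both axes on a log scale, with 14 genes marked as red points. Gcg stands first, Pcsk2 and Chga lie near 3000 to 4000 CPM, Nkx6-1 lies between 10 and 100 CPM, and Pcsk1, Iapp, Sstr2 and Sst lie near or below the dashed line at 1 CPM.

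The label of the line was checked against the markers given for it. Besides Gcg, Pcsk2 was at 3909 CPM in replicate 1, 4113 in replicate 3 and 3839 in replicate 2. Ttr, which encodes the thyroid hormone and retinol carrier transthyretin, was at 1262 CPM in replicate 1, 1176 in replicate 3 and 1077 in replicate 2. Chgb, the granin chromogranin B, was at 1207 CPM in replicate 1, 1208 in replicate 3 and 941 in replicate 2. All 4 lay within the 62 genes with the highest CPM, at ranks 1, 13, 51 and 52. The ratio of the length-scaled level of Gcg to that of Ttr was 30.9 in replicate 1, 33.5 in replicate 3 and 29.7 in replicate 2. Chgb was the one of the 4 in which replicate 2 lay lowest relative to the others, at 0.779 times their mean.

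Of the wider list of alpha cell genes, 25 of 32 were present, with a median of 46.2 CPM against 1.97 CPM over all protein-coding genes. Slc38a5, an amino acid transporter, was at 1616, 1640.0 and 1614 CPM. Slc7a2, a carrier of arginine and other cationic amino acids, was at 857, 817 and 842 CPM. The imprinted zinc finger gene Peg3 was at 1616, 1601 and 1602 CPM. Lower members included Rgs4, a regulator of G protein signalling, and Ttyh1, with 237 to 268 CPM, and Tm4sf4 and Cryba2, with 15.2 to 62.0 CPM. Plce1 was the lowest present member, at 1.12, 1.43 and 1.43 CPM. None of the 25 present alpha cell genes differed by 1.5-fold or more between replicate 2 and the mean of the others. Over all genes compared, 4.05% were at least 1.5-fold higher in replicate 2 and 1.66% at least 1.5-fold lower, so a list this short would hold few. The other 7 members were below 1 CPM. Gc, the vitamin D binding protein, had no counts in any library, Dpp4 had 1, 1 and 7 counts in replicates 1, 3 and 2, and Sstr2, the somatostatin receptor through which delta cells act on alpha cells, was the highest of the absent members at 0.630, 0.580 and 0.562 CPM.

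The hormone transcripts of the other islet cells were at or next to 0. Ins1 had no counts in any library, and Ins2 had 1 count in replicate 2 and none in the others. Sst had 1 count in each library. Ppy and Pyy, the hormones of PP cells, had none, and Ghrl, the ghrelin of epsilon cells, had 2, 0 and 2 counts. The 5 hormone genes Ins1, Ins2, Sst, Ppy and Pyy summed to 1, 1 and 2 counts, against 795462, 809429 and 574755 counts of Gcg. Iapp, the amyloid polypeptide that beta cells release with insulin, was just below the threshold at 0.764, 0.938 and 0.919 CPM.

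Over 51 peptide hormone genes, 9 of 51 were present, below the share over protein-coding genes. After Gcg the present members were low. Adm, adrenomedullin, was at 19.5, 20.6 and 19.62 CPM. Cartpt, the CART prepropeptide, and Stc1, stanniocalcin, ranged over 11.2 to 13.1 CPM. Pomc, Adcyap1, which encodes PACAP, Calca and Npy ranged over 2.71 to 4.95 CPM. The lowest present member was Agt, angiotensinogen, at 1.84, 1.74 and 1.53 CPM. By length-scaled level, as means of replicates 1 and 3, Gcg stood at 66994, Adm at 29.2, Cartpt at 19.59 and Stc1 at 5.52. In replicates 1 and 3 together 19 of the 51 had no counts, among them Gip, Vip, Oxt and Crh.

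Beta cell genes divided into a present and an absent set, 9 of 20 being present with a list median of 0.705 CPM. Pdx1, the factor that beta cells need for insulin expression, had no counts in any library. Mafa was below 1 CPM, at 0.450, 0.670 and 0.715 CPM, and Slc2a2, the glucose transporter GLUT2, at 0.0899, 0.134 and 0.102 CPM. Ucn3, a peptide of mature beta cells, had 1 count in replicate 1 and none elsewhere. Nkx6-1, a factor that marks beta cells in the adult islet, was present at 55.7, 54.1 and 73.5 CPM. Slc30a8, the zinc transporter of hormone granules, was at 309.5, 311 and 316 CPM. Prlr, the prolactin receptor, G6pc2, the islet glucose-6-phosphatase, and Ero1b, an oxidase of protein folding, ranged over 47.6 to 146 CPM. The present members thus included 1 defining transcription factor, Nkx6-1, while the insulin genes, Pdx1 and Mafa were absent or below 1 CPM.

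Of the delta, PP and epsilon cell list, 5 of 14 were present. Rbp4, the retinol-binding protein, was above the rest on both scales, at 2018, 2199 and 2148 CPM and a mean length-scaled level of 4562, where Ffar4 followed at 26.1. The somatostatin receptor Sstr3, the ghrelin receptor Ghsr and Ffar4, a receptor for long-chain fatty acids, ranged over 18.04 to 35.9 CPM. Spp1, osteopontin, was the lowest present member at 8.36, 9.06 and 9.81 CPM. Hhex, the transcription factor of delta cells, had 1, 1 and 4 counts. Of the 6 defining members Rbp4 was the one that was present.

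Genes of exocrine and duct cells were low. 3 of 20 acinar genes were present, among them the elastase Cela1 and the transcription factor Bhlha15, with 1.61 to 9.30 CPM. Prss1, Prss2 and Ptf1a had no counts in any library. In the duct list 4 of 12 were present, among them Spp1, the keratin Krt7 at 6.97, 7.59 and 9.09 CPM and the factor Sox9 at 3.51, 3.30 and 4.04 CPM. Krt19, the keratin that marks ducts, was at 0.0450, 0.0446 and 0.664 CPM, and Cftr had no counts.

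**Figure D2:**
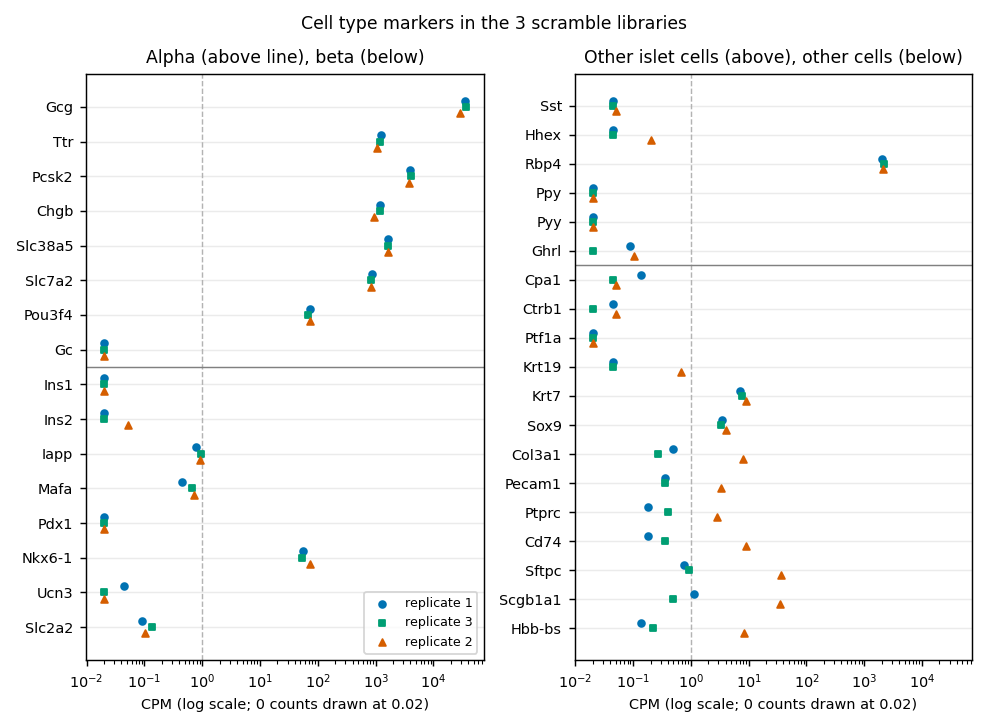
CPM on a log scale of defining marker genes in scramble replicates 1 (circles), 3 (squares) and 2 (triangles), alpha and beta cell genes on the left and other islet, exocrine, stromal, immune, lung and blood genes on the right, with 0 counts drawn at 0.02. Alpha cell genes other than Gc lie right of the dashed line at 1 CPM, the insulin genes and Pdx1 lie at or near 0, and in Col3a1, Pecam1, Ptprc, Cd74, Sftpc, Scgb1a1 and Hbb-bs the triangle of replicate 2 lies right of the other symbols.

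Genes of stromal, immune, lung and blood cells were below 1 CPM in replicates 1 and 3 with few exceptions, and replicate 2 lay above both in most of them. In the mesenchyme list 3 of 13 were present, the collagen Col1a2 at 5.80, 5.80 and 9.81 CPM, fibronectin, Fn1, at 1.12, 1.65 and 5.01 CPM, and vimentin, Vim, at 1.12, 1.03 and 4.95 CPM. In the endothelial list 1 of 11 was present, Egfl7 at 4.95, 5.94 and 6.39 CPM. In the immune list 2 of 13 were present, Cd68 at 1.53, 1.70 and 1.63 CPM and C1qa at 1.26, 1.96 and 2.40 CPM. None of 16 lung genes and none of 9 blood genes were present. Replicate 2 exceeded both other libraries in 16 of 16 lung genes, 11 of 11 endothelial, 12 of 13 mesenchyme, 11 of 13 immune and 7 of 9 blood genes, where 45.9% of all genes with a count did so. Lum, in the mesenchyme list, had no counts in any library.

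The summed level of the lung list was 4.95 CPM in replicate 1, 3.66 in replicate 3 and 118 in replicate 2. For the blood list it was 1.80 CPM in replicate 1, 1.96 in replicate 3 and 22.3 in replicate 2, and for the mesenchyme list 10.4 CPM in replicate 1, 10.6 in replicate 3 and 47.3 in replicate 2. The endothelial list summed to 7.33 CPM in replicate 1, 8.30 in replicate 3 and 22.3 in replicate 2, and the immune list to 5.31 CPM in replicate 1, 6.07 in replicate 3 and 44.1 in replicate 2. Replicate 2 was highest in all 5 sums, and replicates 1 and 3 lay close together in each. In bulk RNA, more cells of a type and more RNA per cell cannot be told apart. The source of these transcripts in replicate 2 was not tested.

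Sftpc, surfactant protein C of alveolar type II cells, was at 0.764 CPM in replicate 1, 0.938 in replicate 3 and 36.1 in replicate 2. Scgb1a1, the secretoglobin of airway club cells, was at 1.12 CPM in replicate 1, 0.491 in replicate 3 and 34.2 in replicate 2. Sftpb was at 0.270, 0.0446 and 11.2 CPM and Sftpa1 at 0.270, 0.179 and 10.3 CPM, both further surfactant proteins. Lyz2, the lysozyme of macrophages, was at 0.405, 0.402 and 19.8 CPM, and Cd74, the invariant chain of antigen-presenting cells, at 0.180, 0.357 and 8.89 CPM. The haemoglobin gene Hbb-bs was at 0.135, 0.223 and 8.38 CPM and Hba-a1 at 0.495, 0.223 and 3.98 CPM. Hba-a1 and Hba-a2 are near-identical, so the division of counts between them is uncertain. Of the defining markers of these 5 lists in replicates 1 and 3, Adgre1, a macrophage receptor, was the one with no counts in either.

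Across all 12943 genes at 1 CPM or more in replicate 2 or in the mean of the others, 524, 4.05%, were at least 1.5-fold higher in replicate 2 and 215, 1.66%, at least 1.5-fold lower. Several of the largest ratios belonged to processed copies of ribosomal protein genes: Rps6-ps4 had 44.3 CPM in replicate 2 and no counts in the others, Rps13-ps2 had 11.95 CPM and Rps12-ps3 10.98 CPM, also against none. Gm10221 had 7.202 CPM against none. Reads may be divided between a copy and the gene it resembles, and this was not tested for these ribosomal copies. With no counts in replicates 1 and 3, they did not enter the sums over copies given below. Gm15500, a copy of Rpl5, differed even between replicates 1 and 3, at 0.0899, 69.7 and 103 CPM. Other genes at the top were Iigp1 and Gbp2, GTPases induced by interferon, at 0.0899, 0 and 5.36 CPM and 0.135, 0 and 7.25 CPM, and Timp3, an inhibitor of matrix proteases, at 0.0450, 0.134 and 5.01 CPM. Chil1, a chitinase-like protein, was at 0.180, 0.0893 and 6.44 CPM.

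In the other direction the largest ratio was that of Gm20390, at 86.0 CPM in replicate 1, 62.6 in replicate 3 and 7.10 in replicate 2. Nnt, the mitochondrial transhydrogenase that makes NADPH, was at 15.9 CPM in replicate 1, 23.0 in replicate 3 and 4.85 in replicate 2, 0.249 times the mean of the others in replicate 2. Ppp1ccb was at 13.04, 22.5 and 3.88 CPM, and Rpl14-ps1 at 116, 87.2 and 38.5 CPM. Gm14288, Dynlt1-ps1, Gm49450, 1190028D05Rik, Llph-ps2 and Nutf2 completed the 10, with ratios of 0.221 to 0.511. In Nnt, Ppp1ccb and Dynlt1-ps1 the replicates 1 and 3 themselves differed by more than 1.4-fold. Some of the 10 are, or have, near-identical copies among which reads may be divided, as described below. Summed with its copy, Nutf2 had 118, 123 and 109 CPM, and Ppp1cc with Ppp1ccb 273, 286 and 293 CPM, so these row ratios are uncertain. Sums stayed lower in replicate 2 for Rpl14 with Rpl14-ps1, at 453, 418 and 319 CPM. The same held for Llph with Llph-ps2 and for Tuba1a with Gm49450. 

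**Figure D3:**
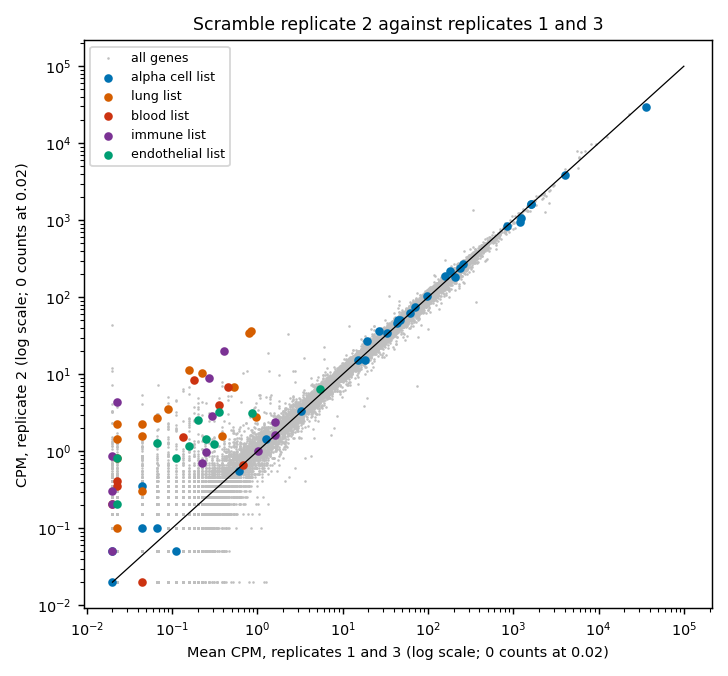
CPM in scramble replicate 2 against the mean CPM of replicates 1 and 3, both on a log scale with 0 counts at 0.02, each grey dot a gene and the black line equality. Alpha cell genes (blue) lie along the line, and lung, blood, immune and endothelial genes lie mostly above it at low CPM, up to 36.1 CPM for Sftpc in replicate 2.

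Neuronal and glial genes were a different case, 12 of 19 being present, all of them in replicate 2 as well. Nefm, a neurofilament subunit, was at 954, 837 and 710.5 CPM. Its partner Nefl, synaptophysin, Syp, the microtubule protein Map2 and Ddc, the decarboxylase that makes dopamine and serotonin, ranged over 243 to 394 CPM. The neuronal tubulin Tubb3 was at 44.5, 46.7 and 40.3 CPM. Tyrosine hydroxylase, Th, was at 5.53, 5.89 and 7.10 CPM, while Tph1, the enzyme for serotonin, was at 0.495, 0.268 and 0.153 CPM and below the threshold. Sox10, a factor of glial cells, had no counts. Neuronal genes of this kind are also known in endocrine cells.

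Of the enzymes that process prohormones, 15 of 19 were present with a median of 201 CPM. Pcsk2 releases glucagon, and Pcsk1, the convertase that yields GLP-1 in gut L cells, was barely present at 1.30, 1.52 and 1.69 CPM. The length-scaled level of Pcsk2 over that of Pcsk1 was 3199 in replicate 1, 2891 in replicate 3 and 2430.2 in replicate 2. Scg5, the 7B2 chaperone that Pcsk2 needs for activation, was at 347, 381 and 339 CPM, and Cpe, the carboxypeptidase that trims the cut ends, at 699.7, 731 and 728 CPM. Pam, which amidates peptides, was at 1516, 1587 and 1618 CPM. Pcsk1n, which encodes the Pcsk1 inhibitor proSAAS, was at 259, 267 and 401 CPM, a ratio of 1.52 in replicate 2, the one processing gene past 1.5-fold that was present in all libraries. Furin, a convertase of the trans-Golgi, was at 64.1, 66.5 and 78.3 CPM. The cathepsins Ctsl and Ctsb, the endothelin-converting enzyme Ece1 and Aplp2 ranged over 199.9 to 609 CPM. Pcsk5 had 4 counts in replicate 2 and none in the others.

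Granule proteins were high as a list, with 22 of 26 present and a median of 224 CPM. Among the granins, which condense the cargo of dense-core granules, Chga was at 3103 CPM in replicate 1, 2969.8 in replicate 3 and 2875 in replicate 2 and Scg2 at 2900.3 CPM in replicate 1, 2915 in replicate 3 and 2765 in replicate 2. Scg3, which links granins to the granule membrane, was at 166, 167 and 167 CPM, and Vgf, a granin-like precursor, at 297, 284 and 334 CPM. The 5 granin genes Chga, Chgb, Scg2, Scg3 and Vgf held 0.767%, 0.754% and 0.708% of counts in replicates 1, 3 and 2. The ratio of the length-scaled level of Gcg to that of Chga was 19.9 in replicate 1, 21.1 in replicate 3 and 17.7 in replicate 2. Chga in turn exceeded Chgb on this scale, with a ratio of 3.74 in replicate 1, 3.58 in replicate 3 and 4.45 in replicate 2. A single hormone gene thus stood above the granins in each library, and the order of Gcg, Chga and Chgb was the same in all 3.

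The granule membrane proteins followed. Ptprn, the phosphatase-like protein IA-2, was at 1752, 1741 and 1826 CPM. Its relative Ptprn2 and the luminal protein Resp18 ranged over 319.9 to 429.8 CPM. Atp6ap1 and Atp6ap2, accessory parts of the proton pump that acidifies granules and lysosomes, and the tetraspanin Cd63 ranged over 278 to 381 CPM. The vesicular monoamine transporter Slc18a1 was the lowest present member at 2.20, 2.77 and 1.74 CPM. Slc18a2, Cadps2, Sytl4 and Nnat were below 1 CPM, with 2 counts or fewer in each of replicates 1 and 3. None of the 22 present members passed 1.5-fold in replicate 2, where 4.05% of all genes compared were higher and 1.66% lower.

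The machinery of vesicle fusion was mostly present, 38 of 50 with a median of 35.4 CPM. Of the core SNARE genes, Snap25 was at 230.2, 224 and 202 CPM, Vamp2 at 129, 118 and 110.2 CPM and Stx1a at 27.9, 26.8 and 23.6 CPM. Complexin, which clamps the SNARE complex, was represented by Cplx1 at 437, 416 and 401 CPM, and the priming factor Munc13 by Unc13a at 291, 284 and 288 CPM, while its relatives Unc13b and Unc13d were below the threshold at 0.674, 0.580 and 0.613 CPM and 0.450, 0.804 and 1.23 CPM. Synaptotagmins include the calcium sensors of fusion. Syt7, a slow sensor of high calcium affinity, was at 233, 229.9 and 234 CPM, and Syt1, the fast sensor of synapses, at 38.5, 39.0 and 39.4 CPM. Syt13 and Syt4, which do not act as such sensors, ranged over 168 to 588 CPM. Sytl2, an effector of Rab27, was at 178, 182 and 186 CPM. Rims1, Doc2a, Doc2b, Cplx3, Rims3 and Rims4 each had no more than 1 count in a library.

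Of the islet and pancreatic transcription factors, 41 of 60 were present, with a median of 18.2 CPM. Factors of the alpha cell were among them. The Iroquois factors Irx2 and Irx1 were at 183, 181 and 222 CPM and 156, 156 and 191 CPM, and Pou3f4, also called Brn4, at 71.8, 68.3 and 73.7 CPM. Each of these 3 was higher in replicate 2 than in both others. The same held for 37 of 60 factors of the list and for 45.9% of all genes with a count. The 60 take in 8 factors without counts in any library, so the bases differ. None of the 3 passed 1.5-fold.

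Factors shared by islet cells were also present. Isl1, a LIM factor, was at 316, 322 and 311 CPM. Neurod1, a bHLH factor, was at 214, 202 and 229 CPM. Pax6, which binds the glucagon gene, was at 132, 134 and 135 CPM. Nkx2-2, the forkhead factor Foxa2 and Ldb1, the LIM partner of Isl1, ranged over 86.5 to 130.1 CPM, and Insm1 and Rfx6, both needed for endocrine cells to form, over 29.6 to 43.7 CPM. By length-scaled level, Isl1 at 257 and Neurod1 at 154 lay above Pou3f4 at 48.5, as means of replicates 1 and 3. Etv1, an ETS factor, had 752, 746 and 795 CPM and a length-scaled level of 231.

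The factors of other pancreatic lineages were at or near 0. Pdx1, Pax4, Neurog3, which starts endocrine differentiation, and Ptf1a of acinar cells had no counts in any of the 3 libraries, and neither had Onecut1, Lmx1a, Lmx1b and Cdx1. Hnf4a had 0, 2 and 4 counts and Mnx1 1, 0 and 4. Glis3 was the highest of the absent factors, at 0.854, 0.491 and 1.07 CPM. Fev, an ETS factor of serotonergic neurons and endocrine precursors, was present at 68.2, 65.8 and 89.8 CPM, and Gata4 and Gata6 were present with 3.79 to 10.4 CPM.

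**Figure D4:**
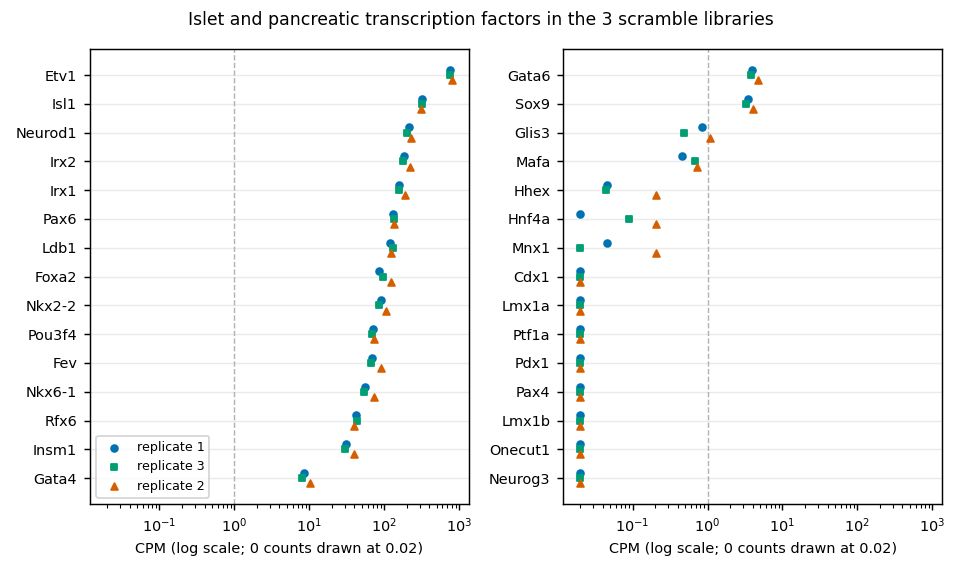
CPM on a log scale of the 30 islet and pancreatic transcription factors that the text names in scramble replicates 1 (circles), 3 (squares) and 2 (triangles), ordered by the mean of replicates 1 and 3, with 0 counts drawn at 0.02. The 3 symbols of a gene nearly coincide above 1 CPM, 17 factors lie right of the dashed line at 1 CPM in replicates 1 and 3, and 8 of the rest have no counts in replicates 1 and 3.

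Voltage-gated calcium channels were few. 7 of 18 subunits were present, and the median of the list was 0.381 CPM. The L-type pore Cacna1c was at 225 CPM in replicate 1, 217 in replicate 3 and 229.7 in replicate 2, and the L-type pore Cacna1d at 12.1 CPM in replicate 1, 13.04 in replicate 3 and 13.4 in replicate 2. The length-scaled level of Cacna1c over that of Cacna1d was 24.4 in replicate 1, 21.9 in replicate 3 and 22.6 in replicate 2, and 12.9 when the longest transcripts gave the lengths. Cacna1i, a T-type channel that opens at low voltage, was at 60.7, 61.8 and 61.0 CPM. The P/Q-type pore Cacna1a, which primary alpha cells are known to use for release, was below the threshold at 0.809, 0.491 and 1.63 CPM, and the N-type pore Cacna1b had 0, 0 and 4 counts. The accessory subunit Cacna2d1 was at 99.6, 97.1 and 108 CPM, and the beta subunits Cacnb3 and Cacnb2 ranged over 6.79 to 34.2 CPM. The present set thus held L-type and T-type pores and no P/Q-, N- or R-type pore of the list in replicates 1 and 3.

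Among sodium channels 6 of 14 were present, a family whose voltage-gated pores carry the fast upstroke of action potentials. The pores Scn8a and Scn9a ranged over 21.7 to 36.0 CPM and the pores Scn3a and Scn2a over 3.08 to 4.80 CPM. The leak channel Nalcn was at 1.03, 1.25 and 1.28 CPM. Scn3b had 0.989, 1.25 and 1.84 CPM and missed the threshold in replicate 1.

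Potassium channels numbered 25 of 54 present. The subunits of the KATP channel, which closes when ATP rises, were Abcc8 at 327 CPM in replicate 1, 334 in replicate 3 and 370.1 in replicate 2 and Kcnj11 at 119.6 CPM in replicate 1, 122 in replicate 3 and 116 in replicate 2. Their length-scaled levels gave Kcnj11 over Abcc8 as 0.568 in replicate 1, 0.567 in replicate 3 and 0.485 in replicate 2. The voltage-gated genes Kcnh2 and Kcnh6 ranged over 72.6 to 143 CPM. Kcnk16, the TALK-1 leak channel of islets, and Kcnk1 ranged over 36.4 to 46.2 CPM. The G protein-gated subunits Kcnj3 and Kcnj9 ranged over 14.8 to 20.98 CPM. Kcnc2 was the lowest present member, at 1.30, 1.07 and 0.971 CPM.

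Of other channels 25 of 39 were present. The intracellular chloride transporter Clcn3 was at 185, 185 and 182 CPM. Its relatives Clcn4, Clcn6 and Clcn7 ranged over 66.3 to 103 CPM. Hcn2, a pacemaker channel, was at 145, 151 and 183 CPM. Trpm7, Ano6 and P2rx4, a purine-gated channel, ranged over 47.3 to 82.3 CPM, and the calcium release channels Itpr1 and Ryr2 over 21.9 to 42.1 CPM. The spread between the 3 libraries was below 1.5-fold in each of these.

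Receptors for peptides were mostly absent, with 11 of 32 present and a median of 0.202 CPM. The glucagon receptor Gcgr had no counts in any library, and Glp1r, the GLP-1 receptor, had 2, 1 and 4 counts. Gipr, the GIP receptor, was present at a low level, at 1.44, 2.28 and 1.43 CPM. Oxtr, the oxytocin receptor, was the highest of them on both scales, at 411 CPM in replicate 1, 402 in replicate 3 and 413 in replicate 2 and a mean length-scaled level of 175. Avpr1b, the vasopressin receptor through which alpha cells are stimulated, was at 89.7, 88.5 and 84.6 CPM. The length-scaled ratio of Oxtr to Avpr1b was 3.92 in replicate 1, 3.89 in replicate 3 and 4.18 in replicate 2. The cholecystokinin receptor Cckbr, the calcitonin receptor Calcr and the endothelin receptor Ednra ranged over 35.9 to 57.6 CPM. Of the 5 somatostatin receptors Sstr3 was the one present. Sstr2 was below the threshold, as given above, and Sstr1, Sstr4 and Sstr5 had 4 counts or fewer in each library.

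Receptors for amines, lipids and metabolites were similar, with 15 of 52 present. The adrenergic receptor Adra2a was next to 0, with 1, 3 and 1 counts. Adra1b was at 1.21, 1.34 and 2.09 CPM. Adgrl1, an adhesion receptor, was at 162, 167 and 158 CPM, and Gpr119, a lipid receptor coupled to cAMP, at 46.5, 49.8 and 52.3 CPM. The orphan receptor Gprc5b and the adhesion receptor Adgrg1 ranged over 25.1 to 34.5 CPM, and Adora2a, an adenosine receptor, was at 8.86, 9.55 and 12.3 CPM. Ffar1, the fatty acid receptor of beta cells, was below the threshold at 0.270, 0.268 and 0.409 CPM.

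Of transmitter-gated and related receptors 12 of 41 were present. Gria2, an AMPA-type glutamate receptor subunit, was at 54.3, 51.4 and 49.1 CPM. The glutamate receptor subunits Grik5, of the kainate type, and Grin1, of the NMDA type, ranged over 69.7 to 127 CPM. No alpha or gamma GABA-A subunit of the list was present. Glrb of the glycine receptor and Chrnb2 of the nicotinic receptor ranged over 50.6 to 63.1 CPM. The GABA-B subunit Gabbr1 was at 18.03, 18.7 and 15.5 CPM, and its partner Gabbr2, with which it forms the receptor, was below the threshold at 0.135, 0.0446 and 0.306 CPM.

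Growth factor, hormone and nuclear receptors and their adaptors were present in 34 of 64 cases. Insr, the insulin receptor, was at 43.5 CPM in replicate 1, 42.95 in replicate 3 and 41.9 in replicate 2, while Igf1r, the IGF-1 receptor, had 3, 1 and 5 counts. The adaptor Irs2 was at 545, 526 and 599 CPM and Irs1 at 43.3, 40.7 and 39.0 CPM, with a length-scaled ratio of 18.2 in replicate 1, 18.7 in replicate 3 and 22.2 in replicate 2. Ntrk2, the receptor for BDNF, was at 499, 517 and 546 CPM. Tfrc, which takes up transferrin, Igf2r, Vldlr and the nuclear receptor Ppard ranged over 124 to 197 CPM.

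Glucose handling genes were present in 38 of 49 cases, with a median of 79.3 CPM. Glucose transport rested on Slc2a1 at 252, 248 and 251 CPM and Slc2a3 at 292, 293 and 274 CPM, whose length-scaled levels stood in a ratio of 1.05 in replicate 1, 1.03 in replicate 3 and 1.11 in replicate 2, or 1.64 with the longest transcripts. Slc2a2 had 2, 3 and 2 counts. For the first step of glycolysis, Hk1 was at 394, 398 and 356 CPM. The length-scaled ratio of Hk1 to Hk2 was 17.8 in replicate 1, 19.1 in replicate 3 and 20.6 in replicate 2.

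The later glycolytic enzymes had high CPM. Aldoa, aldolase, was at 2302, 2289.7 and 2252 CPM. Tpi1, Pkm, Pgk1, Eno1 and Gpi1 ranged over 1213 to 2244 CPM. Gapdh was at 1739, 1965 and 2075 CPM on its own row, and its 4 near-identical copies are given below. Ldha, which makes lactate, was at 899.6, 963 and 872 CPM, with a length-scaled level over that of Ldhb of 9.18 in replicate 1, 9.36 in replicate 3 and 9.38 in replicate 2. G6pc1 of liver had no counts, and Pck1, a gluconeogenic enzyme, had 2, 1 and 0 counts.

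Of the pyruvate and citric acid cycle list 38 of 39 were present, with a median of 141 CPM, and Pdk4 was the one absent, at 0.225, 0.446 and 0.511 CPM. The malate dehydrogenases Mdh1 and Mdh2 ranged over 744 to 839.7 CPM. Acly, which turns exported citrate into acetyl-CoA for lipids, was at 781, 799 and 705 CPM. Citrate synthase, Cs, the aminotransferase Got2, and the cycle enzymes Ogdh and Sdha ranged over 287 to 505 CPM. No member passed 1.5-fold in replicate 2, where 4.05% of all genes compared were higher and 1.66% lower.

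Amino acid transporters and related genes were present in 29 of 40 cases. Besides Slc38a5 and Slc7a2, Slc38a4, a system A carrier, was at 552, 536 and 535 CPM. Slc7a14 and Slc6a17 ranged over 234 to 284 CPM. Slc7a5 and Slc3a2, which together carry large neutral amino acids, ranged over 177 to 243 CPM, and the sodium-coupled glutamine carriers Slc38a1 and Slc38a2 over 172 to 213 CPM. The length-scaled level of Slc38a5 over that of Slc7a2 was 7.98 in replicate 1, 8.50 in replicate 3 and 8.12 in replicate 2. Slc7a11, the cystine carrier, was the lowest present member, at 1.39, 1.12 and 1.94 CPM. Slc17a6, a vesicular glutamate carrier, had no counts.

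Lipid genes were present in 41 of 44 cases. The desaturase Scd2 was at 2353, 2248 and 2209 CPM and Scd1 at 331, 324 and 315 CPM, with a length-scaled ratio of 6.30 in replicate 1, 6.14 in replicate 3 and 6.20 in replicate 2. Scd1 and Scd2 resemble each other, so a part of their reads may be shared. Fasn, fatty acid synthase, was at 532, 525 and 567 CPM, and the desaturases Fads1 and Fads2 ranged over 333 to 463 CPM. The sterol factor Srebf2 and the sterol enzyme Cyp51 ranged over 327 to 514 CPM. Cpt1a, which admits fatty acids to mitochondria, was at 54.4, 56.3 and 56.0 CPM.

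The 13 mitochondrially encoded protein genes held 6.76% of counts in replicate 1, 6.48% in replicate 3 and 7.45% in replicate 2. They encode subunits of the respiratory chain and of ATP synthase. Reads placed on near-identical copies, described below, are not in these shares, which may therefore be too low. The copies Gm28661 of mt-Co2 and Gm28437 of mt-Co3 had means of 12641 and 7027 CPM over replicates 1 and 3. mt-Co1, of complex IV, was at 22887 CPM in replicate 1, 22880.0 in replicate 3 and 24275 in replicate 2. mt-Cytb, of complex III, was at 9605, 9216 and 9736 CPM, and mt-Atp6, of ATP synthase, at 5756, 5446 and 7990.0 CPM. The complex I genes mt-Nd1, mt-Nd2, mt-Nd4 and mt-Nd5 ranged over 3785 to 9909 CPM. Replicate 2 was highest in 9 of 13 of these genes. mt-Nd6, which lies on the other strand, had 3.64, 1.92 and 7.92 CPM.

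Some genes have near-identical copies among which the reads could be divided, and whether a copy is itself transcribed was not tested. A copy was taken as a pseudogene or predicted gene whose transcript matched a protein-coding one at 95% identity or more over 80% of its length or more. Of 625 candidates at 1 CPM or more in the mean of replicates 1 and 3, 197 matched, to 158 genes, and they held 3.52% of all counts. mt-Co2 had 309.7, 305 and 421 CPM on its own row, 2.37% of the 12950 CPM that it reached together with its 2 copies, of which Gm28661 had 12459, 12824 and 11977 CPM. mt-Co3 held 24.7% of its sum, and mt-Nd3 21.02%. Gapdh held 18.6% of its sum of 9934 CPM. Its copy Gm13394 had 5604, 5814 and 4704 CPM and Gm7336 2527, 2214 and 1286 CPM, the latter with replicate 2 at 0.543 times the mean of the others. Ranked by such sums, mt-Co2 and Gapdh took ranks 3 and 4 among all genes, after Gcg and mt-Co1. Hspa8 held 54.9% of its sum, Rplp0 29.2% and Rps7 13.2%. For these genes the level of a single row is uncertain.

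Cell cycle genes were present in 62 of 66 cases, with a median of 96.7 CPM. Top2a, a topoisomerase of dividing cells, was at 686 CPM in replicate 1, 709 in replicate 3 and 682 in replicate 2. Mki67, the proliferation antigen Ki-67, was at 602 CPM in replicate 1, 635 in replicate 3 and 640.5 in replicate 2. The replication helicase genes Mcm2, Mcm3 and Mcm6, the clamp Pcna and the nucleotide enzyme Rrm1 ranged over 369 to 676 CPM. The cyclins Ccnb1 and Ccna2 and their kinase Cdk1 ranged over 179 to 270.2 CPM. Each of these genes varied by less than 1.5-fold between the 3 libraries.

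The cyclins and kinases of G1 were uneven. Cdk4 was at 359 CPM in replicate 1, 365 in replicate 3 and 373 in replicate 2, whereas Cdk6 had 2, 2 and 6 counts. Ccnd3, cyclin D3, was at 32.2, 33.6 and 40.8 CPM, Ccnd2 at 7.51, 6.70 and 7.87 CPM, and Ccnd1 was below the threshold in replicates 1 and 3 at 0.0450 and 0.179 CPM and above it in replicate 2 at 1.89 CPM. The length-scaled level of Cdk4 over that of Ccnd3 was 11.5 in replicate 1, 11.2 in replicate 3 and 9.41 in replicate 2, and 20.6 with the longest transcripts. The inhibitors Cdkn2a and Cdkn1a were at 176, 167 and 129 CPM and 135, 124 and 108 CPM, and Cdkn1b, p27, was at 282, 269 and 299 CPM. Cdkn2a is often lost in cell lines, and here its transcript was present. Myc was at 1.21, 1.65 and 1.84 CPM and Mycn at 8.14, 8.30 and 11.6 CPM.

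The reference lists gave a scale for these values. All 24 housekeeping genes were present, with a median of 1025 CPM, from Rplp0 at 26.8, 20.6 and 27.6 CPM to Eef1a1. Actb was at 449, 471 and 505 CPM. B2m, the light chain of MHC class I, was at 31.0, 31.3 and 50.4 CPM, the one housekeeping gene past 1.5-fold in replicate 2. All 46 ribosomal protein genes were present, with a median of 305 CPM, and replicate 2 lay below both others in 38 of 46, against 25.6% of all genes with a count. Rps2 was at 908, 820.4 and 823 CPM, and Rpl30, one of 2 members past 1.5-fold lower in replicate 2, at 228, 235 and 130.4 CPM. All 39 genes of secretion and folding in the endoplasmic reticulum were present, with a median of 122 CPM, among them the chaperones Hsp90b1, Hspa5 and Calr, the isomerase P4hb and the translocon pore Sec61a1, with 501 to 1266 CPM. The stress response factors Xbp1 and Atf4 ranged over 116 to 341 CPM.

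The genes that the series targets elsewhere had modest levels here. Mettl3, the catalytic m6A writer, was at 13.9 CPM in replicate 1, 15.9 in replicate 3 and 15.02 in replicate 2, and its partner Mettl14 at 25.2 CPM in replicate 1, 26.7 in replicate 3 and 24.0 in replicate 2. The length-scaled level of Mettl14 over that of Mettl3 was 1.34 in replicate 1, 1.24 in replicate 3 and 1.18 in replicate 2 with the main transcripts and 0.522 with the longest, so the order of Mettl3 and Mettl14 depends on the transcript taken. 19 of 22 genes of the m6A machinery were present. The eraser Alkbh5 was at 159, 148 and 143 CPM and Fto at 94.5, 93.1 and 97.4 CPM, the reader Ythdc1 at 119.8, 117 and 107 CPM, and Igf2bp1 and Igf2bp3 were next to 0.

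**Figure D5:**
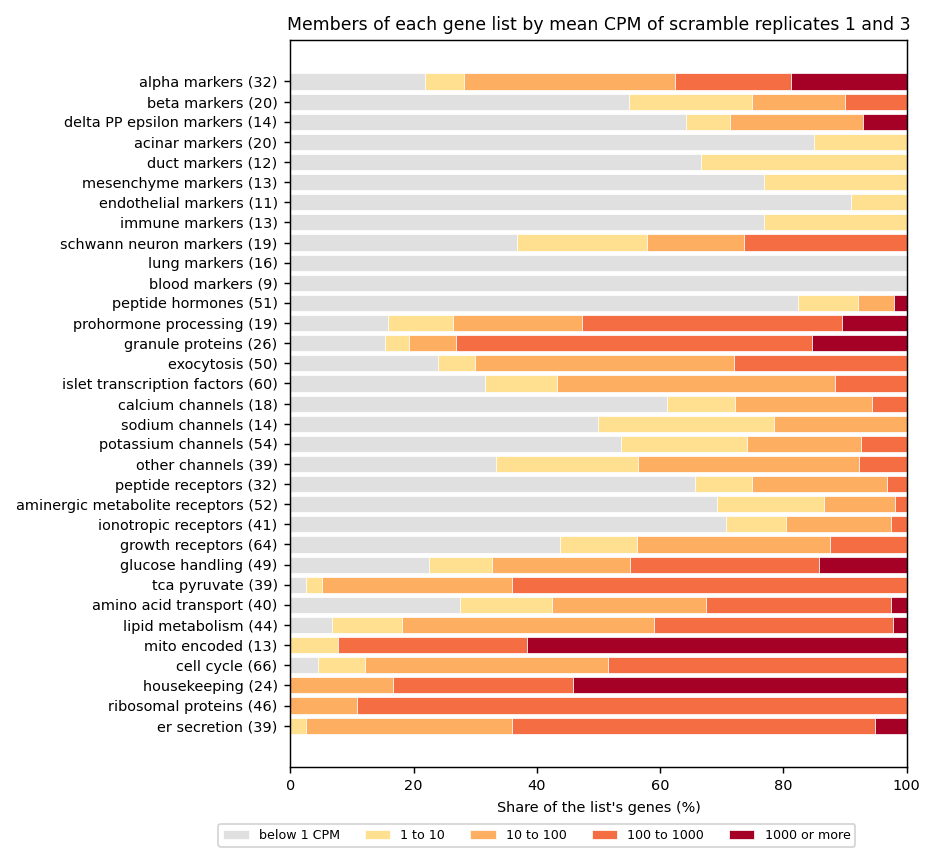
Share of the genes of each list by mean CPM of scramble replicates 1 and 3, the number of genes in brackets and darker colours for higher CPM. The grey part, below 1 CPM, is over 80% of the acinar, endothelial, lung, blood and hormone lists and 0 for the housekeeping, ribosomal and secretion lists.

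Over all lists, 641 of 1027 different genes were present. Lists with a larger share present than the 51.9% of protein-coding genes were those of alpha cells, neuronal and glial genes, prohormone processing, granules, fusion, islet transcription factors, other channels, growth factor and nuclear receptors, metabolism, amino acid transport, the m6A machinery, the cell cycle and the reference lists. Lists with a smaller share were those of other islet and pancreatic cells, stromal, immune, lung and blood cells, peptide hormones, calcium, sodium and potassium channels, and peptide, metabolite and transmitter receptors. Some lists lay near the 51.9%: growth factor and nuclear receptors at 53.1%, potassium channels at 46.3%, beta cell genes at 45% and sodium channels at 42.9%. Their side of it rests on few genes. Since the lists were written by hand, these shares describe the genes chosen.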

How the data were processed

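RNA-seq libraries of alphaTC1-6 cells were read from a table of expected counts per gene that the authors deposited, with kallisto named in the submitters' processing notes and no version. The genome build, the annotation, the summing of transcripts to genes and the strand setting of the counting were each not given in the sources used here. Overlapping and antisense genes therefore cannot be told apart. Of the 31767 scramble values of 100 or more, 70.3% were whole to within 1e-06, which estimates rescaled by transcript length would not be, so they were read as plain expected counts. All were rounded. Rows without a symbol held 0.480% to 0.542% of counts.

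CPM used library totals. Lengths and symbols came from GENCODE M21, with 1 transcript per gene: the principal one, the longest of several. 48651 of 53947 rows had a length. Near-identical copies were found with blastn 2.17.0. Nothing was tested, since the scramble libraries were described without a contrast, and replicate 2 was set against the mean of replicates 1 and 3 at 1.5-fold. The code for this was checked on simulated counts with counting error alone, below the spread of these libraries. That check gives no rate of false calls here. Scaling alternatives used edgeR 4.0.16 and DESeq2 1.42.0 in R 4.3.3.

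The genes and the 34 lists, with 1081 entries, were chosen with earlier results of these data known. Genes named were the 4 markers given, the 30 highest by CPM and the 15 highest by length-scaled level, the defining and up to 8 highest members of each list, list ends, and the 10 largest ratios in each direction for replicate 2 among genes reaching 5 CPM on the higher side. Some genes that this rule names are not reported here. Other list members and the genes of the observations were chosen after their values were seen.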

Additional observations from a re-analysis of the deposited data

How the results depend on the processing

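Gcg, at a mean of 35954 CPM, stood at 36398 CPM with TMM factors, 36297 with DESeq2 size factors, 38504 with totals that leave out the 13 mitochondrially encoded genes, 33756 over all 3 libraries, and 35769 to 36139 with replicate 1 or 3 left out. It kept rank 1 under each of these length choices: main, longest and median transcript, and none. The 15 highest genes by length-scaled level shared 14 members with those by longest transcript, and 11 with those by CPM or by median transcript. The share of counts of the top gene was 2.94% in replicate 2 alone and 3.85% without mitochondrial genes, that of the top 10 was 12.2% and 8.84%, and that of the top 100 was 24.4% and 20.3%. With replicate 1 or 3 left out these shares ran from 3.58% to 3.61%, from 11.9% to 12.1% and from 24.8% to 24.9%. Totals without mitochondrial genes still held the near-identical copies of those genes.

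The number of genes present, 12272, ran from 10387 at 5 CPM to 13192 at 0.5 CPM, and the number of listed genes present, 641, from 573 to 672. Genes higher in replicate 2, 524, numbered 310 at 2-fold, 92 with a minimum of 5 CPM and 4789 with no minimum. Genes lower there, 215, numbered 52, 81 and 4963. TMM factors gave 455 and 261. Over 102 named genes, leaving out replicate 1 or 3 moved the mean CPM by a factor of 0.774 to 1.23, with both ends at Gipr, and averaging all 3 libraries by 0.879, for Ptma, to 1.23, for Col1a2. The median transcript length and the sums over copies were chosen after seeing the data. Genes below 1 CPM rest on 22 counts or fewer in a library, so ratios that rest on them are imprecise. No paired analysis was possible because no result comes from a test between groups.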

Other observations

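A few imprinted genes, picked after their values were seen, were read as values. Peg10, a retrotransposon-derived gene, was at 1181, 1166 and 1171 CPM in replicates 1, 3 and 2, and Grb10, an adaptor that restrains insulin signalling, at 852, 845 and 863 CPM. The imprinted long non-coding RNAs Meg3 and Rian, which lie in one cluster, were at 77.7, 77.1 and 71.8 CPM and 227, 229.9 and 222 CPM. Not all imprinted genes were high. Nnat had 0, 0 and 4 counts, and Cdkn1c was at 1.30, 0.982 and 1.38 CPM, whereas Peg3, given above, was at 1616, 1601 and 1602 CPM. Lpl, lipoprotein lipase, was at 936, 909 and 999 CPM, and Il1r1, the receptor for interleukin 1, at 835, 808 and 814 CPM. Stard4, a sterol carrier, was at 1303, 1252 and 1150.3 CPM, and Kif1a, a motor that carries dense-core vesicles, at 839.5, 830.5 and 852 CPM. Eef1a2, the elongation factor of muscle and neurons, was at 845, 858 and 779 CPM. Apart from Nnat, these genes varied by less than 1.5-fold between the 3 libraries.

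The nuclear long non-coding RNAs Malat1 and Neat1 were lower in replicate 2 than in both others, at 228, 191 and 152 CPM and 274, 251 and 151 CPM. Neat1 had a replicate 2 ratio of 0.576, past 1.5-fold in that direction. Pseudogenes apart, the non-coding transcript with the highest CPM was Gm43305, at 1458, 1304 and 1369 CPM.

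Genes of the sex chromosomes were read as values. Xist, which silences an X chromosome, was at 0.270, 0.179 and 0.255 CPM. The Y-linked genes Ddx3y, Uty and Eif2s3y were at 0.180, 0.0893 and 0.358 CPM, 0.0899, 0.179 and 0.204 CPM and 0.135, 0.134 and 0.204 CPM, and Kdm5d was at 0.764, 1.03 and 1.17 CPM. The X-linked Eif2s3x was at 289.6, 290.3 and 286 CPM and Kdm6a at 13.4, 13.5 and 15.5 CPM. Xist and the Y-linked genes were thus near or below the threshold in all 3 libraries.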
